A study of Mus musculus with 12 samples.

Results

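The genes described here build the route by which proteins made in the cytosol enter mitochondria and fold there. They are 40 genes, taken by symbol from a fixed list of TOM and TIM complex subunits, import motor parts, the processing peptidase and matrix chaperones, and Timm10 is one of them. All 40 were matched to an identifier in a read-count table of 47643 genes, and 33 of them had enough reads to be tested, out of 6676 genes tested in all. Their messenger RNA was counted from the 3′ end in gastrocnemius, a calf muscle, of 6 female C57BL/6J mice aged 11 weeks. In 3 of these mice c-myc was over-expressed (Myc animals), and 3 were controls. Its product MYC is a transcription factor known for raising growth and protein synthesis. From each animal the right leg was acutely contracted and the left leg was not, which gives 4 groups of 3 libraries: contracted Myc, uncontracted Myc, contracted control and uncontracted control. Leg side and contraction cannot be told apart, since the contracted leg was the right one in every animal. The sources used here do not give the construct or promoter behind the Myc over-expression, nor the time between contraction and sampling.

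Nearly all mitochondrial proteins are encoded in the nucleus and cross the outer membrane through the TOM complex. From there, small TIM chaperones of the intermembrane space guide hydrophobic proteins onward, the TIM22 complex inserts metabolite carriers into the inner membrane, and the TIM23 complex passes proteins with a presequence to the matrix. In the matrix the motor built on Hspa9 pulls them in, the processing peptidase cuts the presequence, and the chaperonin formed by Hspd1 and Hspe1 folds them. Skeletal muscle fibres are rich in mitochondria and depend on this route to renew them.

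Short stretches of promoter around 2 motifs are shown for Timm10, Timm9, Hspd1 and Hspe1. Timm9 and Hspe1 were named after their values were seen. The motifs were searched because the study over-expressed Myc and imposed a stress on the muscle. CACGTG is the E-box bound by MYC with its partner MAX, and GAANNTTC is the core of the element bound by heat shock factor. Both motifs read the same on either strand, and neither overlaps the other in the windows shown. They were searched in RefSeq promoter windows of 300 bases around each gene's start (GRCm38.p6), which exist for 35 of the 40 genes. CACGTG was present in 5 of these 35 genes (14.3%), namely Timm10, Timm9, Timm8a1, Hspd1 and Tomm20, against 8.09% of 27025 genes with a window. GAANNTTC was present in 3 of 35 (8.57%), namely Hspd1, Hspe1 and Timm9, against 9.04% of genes. Both shares describe letters only, and a link between a motif and a gene's level was not tested. The stretches of Timm8a1 and Tomm20 are not shown. Capitals mark the motif in each 30-base stretch below, written 5′ to 3′ on the gene's own strand.
Timm10, chr2:84827037-84827066, plus strand: ccggaagtgaccCACGTGcttcttatttcg
Timm9, chr12:71136716-71136745, minus strand: cctacattttccCACGTGgtaacgaatctg
Hspd1, chr1:55088306-55088335, minus strand: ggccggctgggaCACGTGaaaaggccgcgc
Hspe1, chr1:55088053-55088082, plus strand: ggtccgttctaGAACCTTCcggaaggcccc
The E-box of Timm10 starts 29 bases into the transcript, that of Timm9 58 bases before its start and that of Hspd1 80 bases before its start. The Timm9 window holds another CACGTG, not shown, 1 base before its start. Hspd1 and Hspe1 are neighbours transcribed in opposite directions, with starts at 55088243 and 55088148 on chromosome 1. The GAANNTTC match of Hspe1, 84 bases before its start, is the same site that the window of a second Hspd1 start (55087932) holds.

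Each library held 1371732 to 1643216 reads. Levels are given as CPM, reads per unit of library size after TMM scaling. A single read equalled 0.609 to 0.729 CPM before that scaling. The 40 genes together took 0.120 to 0.164% of a library, or 1936 to 2481 reads, and the tested ones had median levels of 7.06 to 161 CPM. Myc, the targeted gene, had 32, 0 and 2 reads in the contracted libraries labelled Myc 1, 2 and 3, and 11, 9 and 9 in the uncontracted ones. It had 1, 10 and 59 reads in the contracted libraries labelled control 1, 2 and 3, and 0, 1 and 0 in the uncontracted ones. Among contracted libraries 2 and 3, those labelled control thus held more Myc reads than those labelled Myc. The labels give genotype and leg, not the level of Myc. An exact 2-sided permutation test of 3 against 3 libraries gave p = 0.1, the smallest it can give, in uncontracted legs and p = 0.6 in contracted legs. A 3′ library misses a transgene without the endogenous 3′ end, and the sources used here do not say whether this construct has it. Its part in these Myc reads was not tested. The groups below follow the labels as deposited. Counts of genes that passed, and the contraction changes of Timm10, Hspd1 and Hspa9, are also given without the 4 libraries in question.

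Comparing uncontracted Myc with uncontracted control legs asks what Myc over-expression changes at rest. No gene of the 6676 passed an adjusted p under 0.05 in edgeR's quasi-likelihood test (0%), and hence none of the 33 import and folding genes did. At an unadjusted p under 0.05, 6 of the 33 were higher (Tomm70a, Timm10, Timm44, Hspa9, Hspd1 and Hspe1) and 0 lower, against 3.71% and 2.59% of all genes tested. DESeq2, another count test, called 1 of the 33, Timm10. The log2 change was above 0 in 28 of the 33 with a median of 0.18, against 49.3% and a median of -0.01 over all genes. In 8 of the 33 every uncontracted Myc library lay above every uncontracted control library (7.26% of all genes do so), and in 0 of the 33 did every one lie below (5.6%). The mean of the 33 log2 levels, set to 0 over the 12 libraries, was 0.10, 0.17 and 0.10 in uncontracted Myc legs and -0.20, -0.10 and -0.12 in uncontracted control legs. These groups did not overlap, and their means differed by 0.26, between 0.24 and 0.34 under the other scalings and prior counts.

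In contracted legs the same mean was 0.20 in the library labelled Myc 1 but -0.13 and -0.08 in those labelled Myc 2 and 3, against 0.04, 0.04 and -0.02 in the controls. Between contracted Myc and contracted control libraries no gene of the 6676 passed (0%), and the median change of the 33 was -0.01 with 16 of 33 above 0 (49.7% of all genes). At an unadjusted p under 0.05, 1 of the 33 was lower, Grpel1 (1.48% of all genes), and DESeq2 called 0 of the 33. A muscle library mixes fibres with other cells, so that fewer cells of a type and less RNA per cell cannot be told apart in any of these comparisons.

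**Figure D1:**
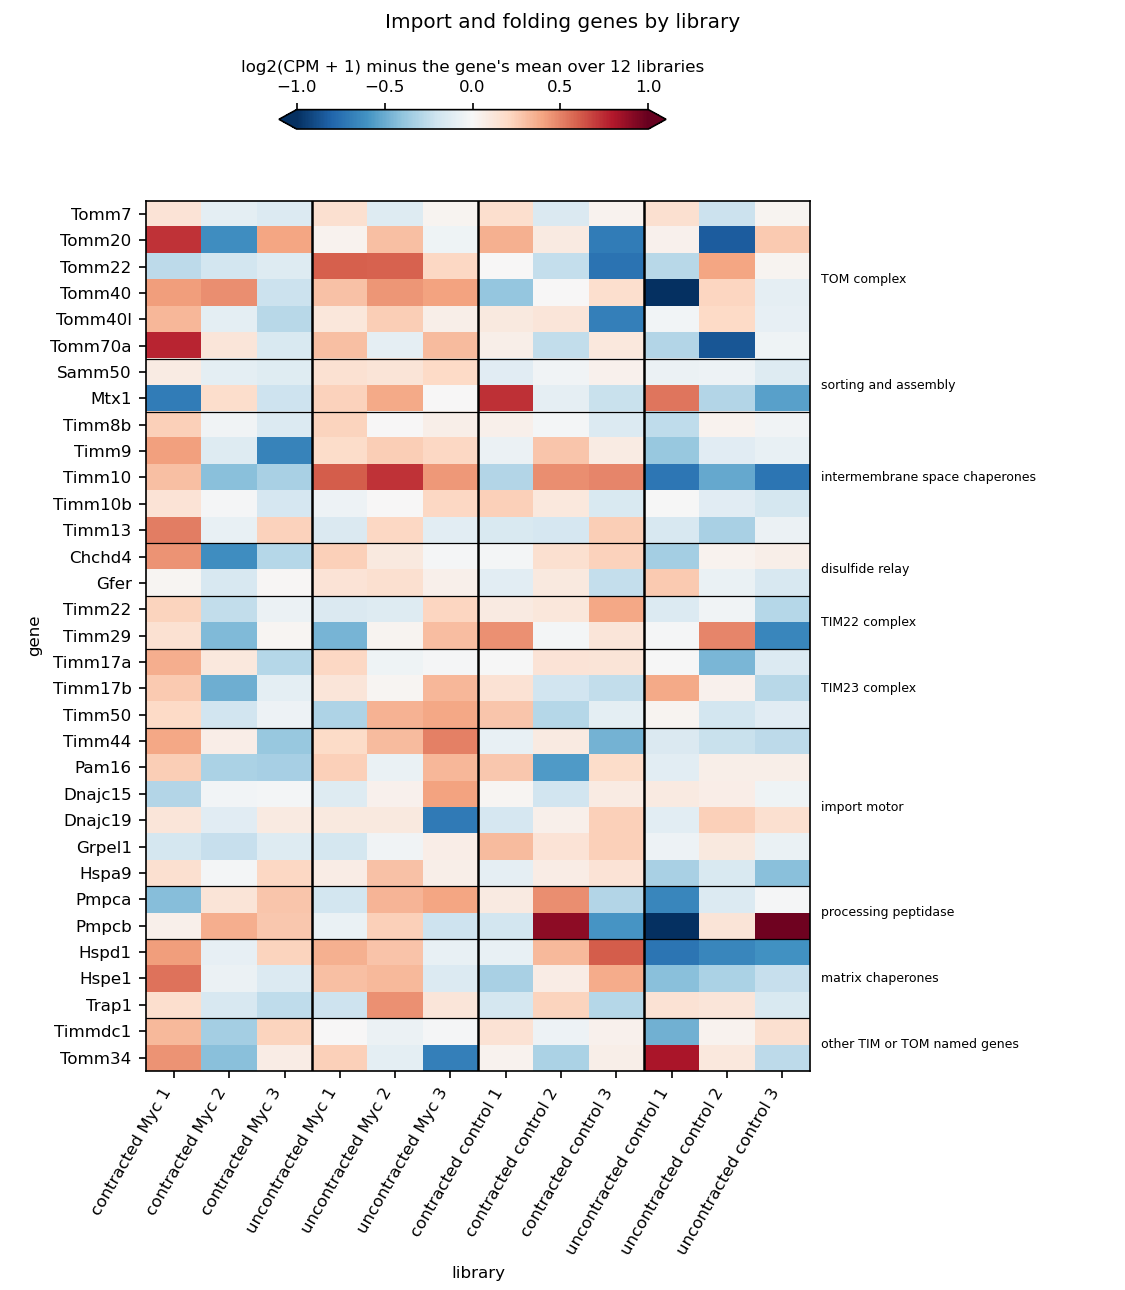
Colour shows log2(CPM + 1) of each tested import or folding gene (rows, ordered by role) in each of the 12 libraries (columns), minus the gene's mean over the 12. Timm10 and Hspd1 are below their mean in all 3 uncontracted control libraries and above it in 2 or 3 of the uncontracted Myc libraries.

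**Figure D2:**
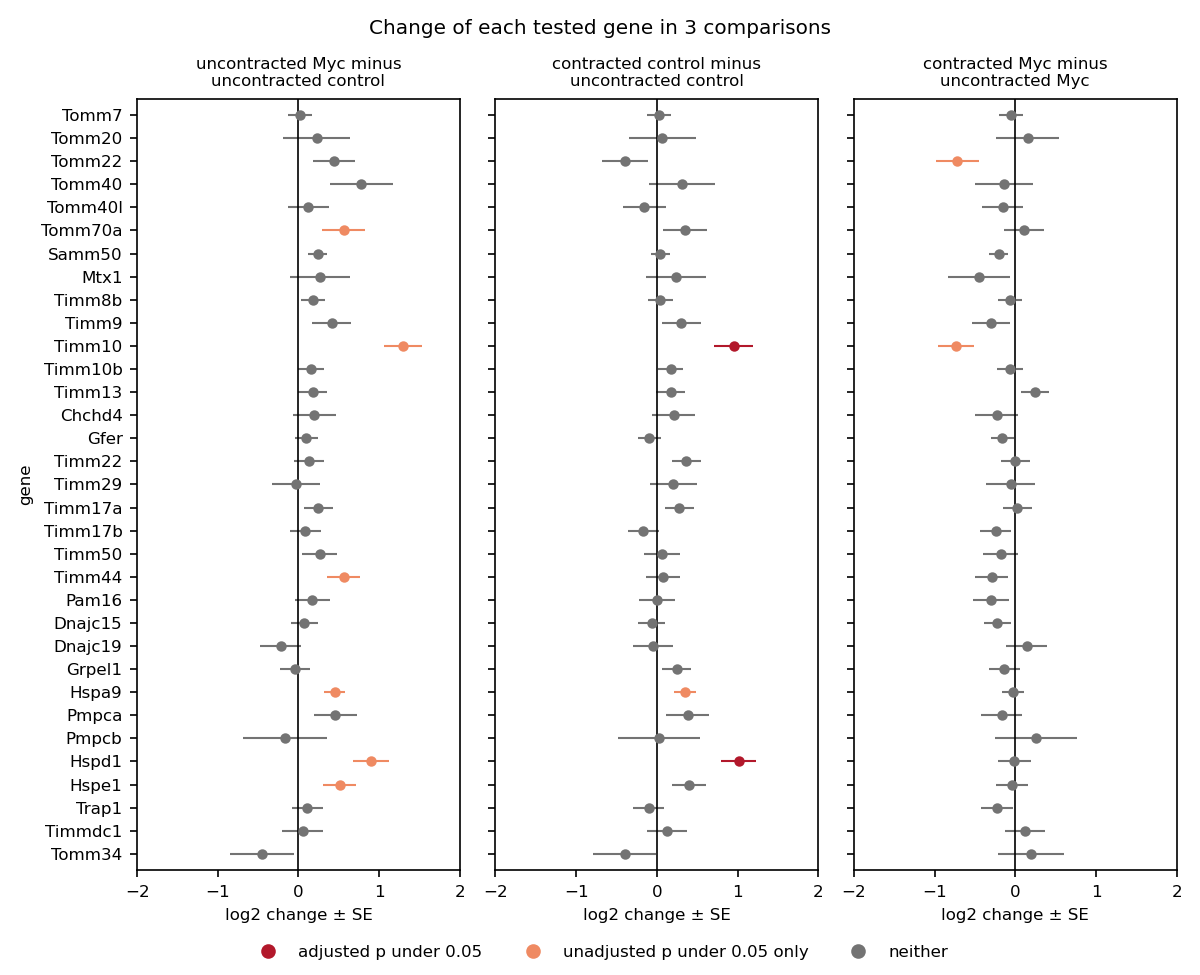
Points are log2 changes with SE bars for the 33 tested genes in 3 comparisons, and colour marks adjusted p under 0.05, unadjusted p under 0.05 only, or neither. Timm10 and Hspd1 pass in contracted against uncontracted control legs, and Timm10 has opposite signs in the 2 contraction comparisons.

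Contracted were compared with uncontracted legs within each labelled genotype, where contraction cannot be told apart from leg side. In controls 2 of the 33 genes rose, Timm10 and Hspd1, and 0 fell, against 2.38% of all genes higher and 0.419% lower. The median change of the 33 was 0.12, against 0.01 over all genes, and 24 of 33 were above 0 (50.9% of all genes). In 6 of the 33, namely Timm9, Timm10, Timm22, Grpel1, Hspa9 and Hspd1, every contracted library lay above every uncontracted one (9.71% of all genes). In Myc animals 0 of the 33 passed in edgeR's test, where 3.89% of all genes did, and 2 of them, Timm10 and Tomm22, were lower at an unadjusted p under 0.05 (6.13% of all genes were). DESeq2 also called 0 of the 33 there, and 8 of 33 were above 0 with a median of -0.13, against 49.2% and -0.01 over all genes. The mean log2 level of the 33 was 0.20 in contracted Myc 1, against 0.10 to 0.17 in uncontracted Myc legs. It was -0.13 and -0.08 in contracted Myc 2 and 3, which held 0 and 2 Myc reads. In 4 of the 33, namely Tomm22, Samm50, Timm10 and Gfer, every contracted library lay below every uncontracted one (9.2% of all genes). Averaged over both genotypes, 1 of the 33 rose, Hspd1, while 5.71% of all genes did. Without the contracted libraries numbered 2 and 3, 0 of the 33 passed in any of these 3 comparisons, which then rest on 1 contracted library of each genotype, assumed to vary like the other groups.

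The difference between the contraction effects, in Myc animals minus in controls, passed in 0 genes (0%), and DESeq2 called 0 of the 33. Its median over the 33 was -0.25, and 6 of 33 were above 0 (49.6% of all genes). These 2 values include the contracted libraries numbered 2 and 3, whose Myc reads went against their labels. At an unadjusted p under 0.05, 2 of the 33 were below 0, Timm10 and Hspd1 (2.65% of all genes). This difference, the Myc effect in uncontracted legs and the contraction effect in controls all use the uncontracted control libraries, so that their values for a gene are not independent of each other.

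Among the intermembrane space chaperones, Timm10 forms with Timm9 the complex that carries hydrophobic carrier precursors between the membranes. Its gene (ENSMUSG00000027076) lies at chr2:84826997-84830213 on the plus strand (GRCm38, GENCODE M21). No exon of another gene overlaps its 3′ end, and none of its 3′ sequence recurs in another annotated transcript. Timm10 stood at 38.6, 23.0 and 24.7 CPM in the contracted libraries labelled Myc 1, 2 and 3 and at 47.9, 52.1 and 42.6 CPM in uncontracted Myc legs. It stood at 25.2, 43.4 and 44.1 CPM in the contracted libraries labelled control 1, 2 and 3 and at 18.5, 21.5 and 18.4 CPM in uncontracted control legs. These are 56, 38 and 41, then 76, 83 and 55, then 36, 66 and 68, then 29, 32 and 30 reads. The uncontracted control legs were lowest of all, and each of the 9 other libraries lay above them. The share of all tested genes with this pattern was not counted, here or for the genes below.

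The Myc effect on Timm10 in uncontracted legs was 2.45-fold, a log2 change of 1.29 ± 0.23 (SE), with the smallest p of all 6676 genes but an adjusted p of 0.117 in edgeR's test. It passed in 6 of 20 other settings, among them DESeq2 (adjusted p = 0.0456) and the 6 libraries compared alone (adjusted p = 0.0110), and its log2 change was 1.22 to 1.35 in all of them. With contraction in controls Timm10 rose by 0.95 ± 0.24, 1.94-fold, with an adjusted p of 0.0301, and contracted and uncontracted control libraries did not overlap. That call was lost without any one of 5 control libraries, all but contracted control 1 (log2 change 0.83 to 1.01, adjusted p 0.0725 to 0.192). With the animal as a random block its adjusted p was 0.0660, and without the libraries numbered 2 and 3 its change was 0.37 ± 0.29 (adjusted p = 0.963). With contraction in Myc animals its log2 change was -0.74 ± 0.22 (adjusted p = 0.0679), all 3 contracted libraries lying below the uncontracted ones. Without the libraries numbered 2 and 3 that change was -0.30 ± 0.25 (adjusted p = 0.955). The difference of the 2 contraction effects was -1.69 ± 0.33, again the smallest p of all genes, with an adjusted p of 0.275, and it was -0.66 ± 0.38 without the libraries numbered 2 and 3. Between contracted Myc and contracted control libraries Timm10 differed by -0.40 ± 0.23 with overlapping groups.

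**Figure D3:**
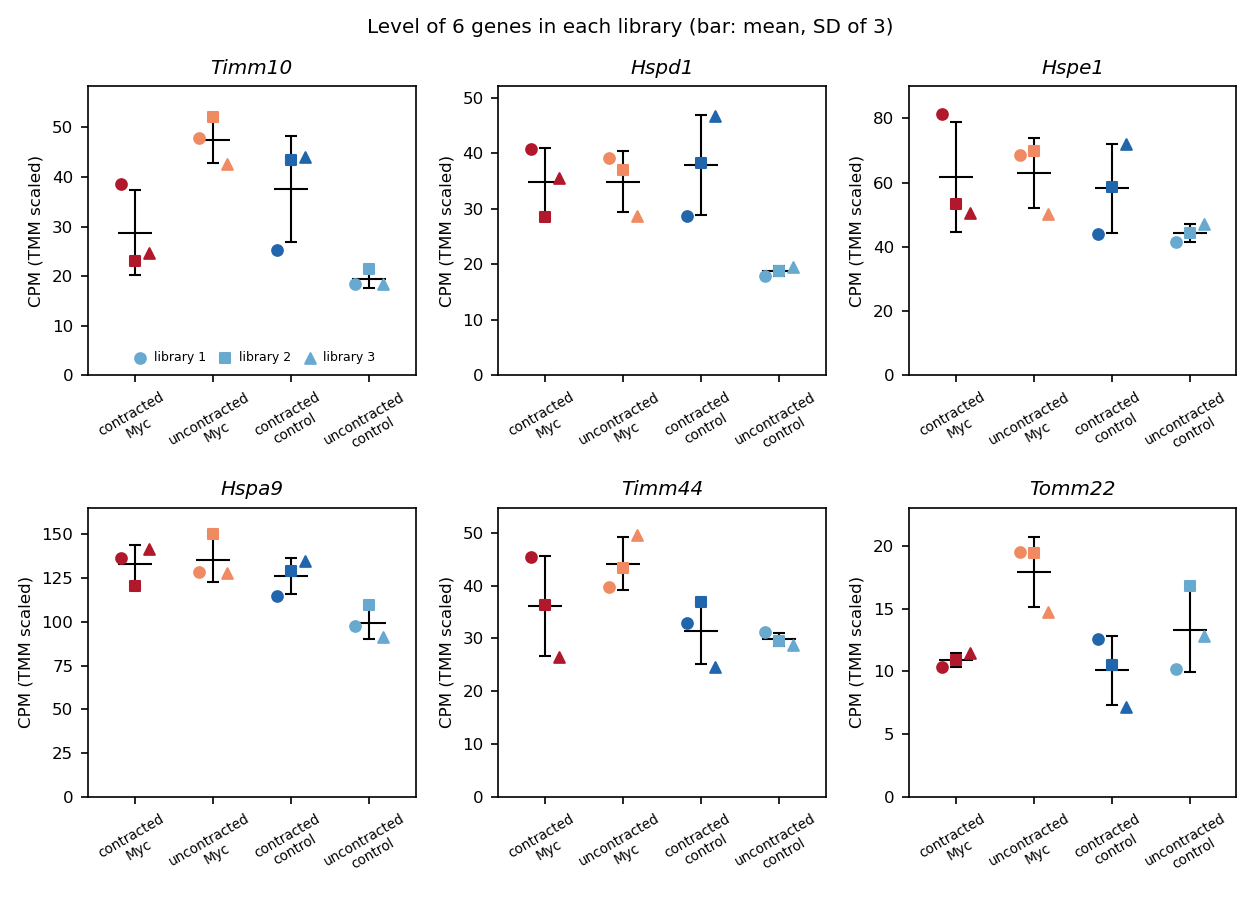
Points are CPM of 6 genes in each library (circle, square and triangle for libraries 1, 2 and 3 of a group), with the mean and SD of 3 as black bars. Timm10 and Hspd1 are lowest in the 3 uncontracted control libraries, and Timm10 stands at 23.0 to 38.6 CPM in contracted Myc and 25.2 to 44.1 CPM in contracted control libraries.

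The other small chaperones moved less. Timm9, named here after its values were seen, had 30.4, 20.6 and 13.8 CPM in contracted Myc libraries, 25.8, 27.0 and 26.3 in uncontracted Myc, 21.7, 27.6 and 24.0 in contracted control and 17.2, 20.9 and 21.4 in uncontracted control libraries. Uncontracted Myc libraries lay above uncontracted control libraries, at a log2 change of 0.41 ± 0.24 (adjusted p = 0.806). Timm13, which pairs with Timm8 proteins in a sister complex, had 84.9, 56.4 and 69.8 CPM in contracted Myc and 53.6, 68.4 and 54.9 CPM in uncontracted Myc libraries. It had 53.2, 52.7 and 70.6 CPM in contracted control and 52.8, 47.1 and 56.9 CPM in uncontracted control libraries. Those groups overlapped, and its averaged contraction change was 0.21 ± 0.13 (adjusted p = 0.376). Timm8b ranged from 59.2 to 83.5 CPM and Timm10b, a partner at the TIM22 complex, from 50.2 to 67.2 CPM, with no comparison passing. Timm8a1 had 0 to 5 reads per library and was not tested.

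Within a library, the log2 level of Timm10 minus that of Timm9 was 0.67 to 0.92 in uncontracted Myc legs and -0.21 to 0.10 in uncontracted control legs. The same difference was 0.15 to 0.78 in contracted Myc and 0.20 to 0.84 in contracted control libraries. Timm10 minus Timm13 was -0.38 to -0.16 in uncontracted Myc legs and -1.57 to -1.08 in uncontracted control legs. It was -1.45 to -1.11 in contracted Myc and -1.04 to -0.27 in contracted control libraries. Timm10 minus Timm8b was -0.77 to -0.44 in uncontracted Myc legs and -1.84 to -1.61 in uncontracted control legs. It was -1.53 to -1.09 in contracted Myc and -1.50 to -0.53 in contracted control libraries. So Timm10 was higher relative to each of these chaperones in uncontracted Myc legs without overlap, by 0.84, 1.07 and 1.06 on the log2 scale. In contracted legs the Myc minus control differences went the other way, at -0.14, -0.61 and -0.42. Only the pair with Timm13 did not overlap there. These pairs were chosen after their values were seen, so the differences are a description with no test beside them.

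**Figure D4:**
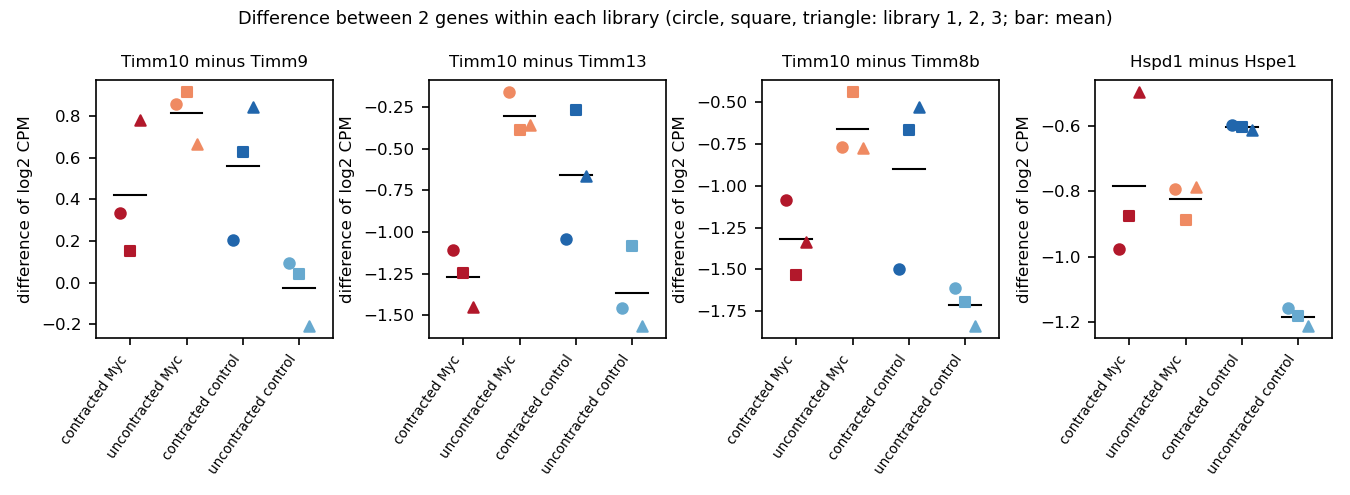
Each point is the difference of 2 genes' log2 CPM (prior count 2) in 1 library, by group, with the group mean as a bar. Timm10 minus each small chaperone is higher in all 3 uncontracted Myc than in all 3 uncontracted control libraries, and Hspd1 minus Hspe1 is lowest in the uncontracted control libraries.

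Chchd4 oxidises the cysteines that trap small TIM proteins in the intermembrane space, and Gfer re-oxidises Chchd4. Chchd4 had 22.8, 10.3 and 13.2 CPM in contracted Myc, 19.5, 17.6 and 16.2 in uncontracted Myc, 16.1, 18.4 and 19.4 in contracted control and 12.7, 16.8 and 17.1 in uncontracted control libraries. Gfer had 119, 105 and 118 CPM in contracted Myc, 129, 131 and 121 in uncontracted Myc, 109, 126 and 99.1 in contracted control and 141, 112 and 105 in uncontracted control libraries. Groups overlapped except for Gfer in Myc animals, where contracted libraries lay below uncontracted ones at a log2 change of -0.16 ± 0.14 (adjusted p = 0.645). Neither gene passed in any comparison.

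In the matrix, Hspd1 is the chaperonin that encloses newly imported proteins and Hspe1 is its lid. Hspd1 (ENSMUSG00000025980, chr1:55077835-55088243, minus strand) had 40.7, 28.5 and 35.5 CPM in contracted Myc and 39.1, 37.0 and 28.6 CPM in uncontracted Myc libraries. It had 28.7, 38.2 and 46.6 CPM in contracted control and 17.8, 18.8 and 19.6 CPM in uncontracted control libraries. The 3 uncontracted control libraries lay close together, and each of the 9 others was above them. With contraction in controls Hspd1 rose 2.02-fold, by 1.01 ± 0.22 on the log2 scale (adjusted p = 0.00971). That call was lost without uncontracted control 1 (adjusted p = 0.0541) or contracted control 3 (adjusted p = 0.0979), and without the libraries numbered 2 and 3 the change was 0.60 ± 0.29 (adjusted p = 0.878). The averaged contraction change was 0.50 ± 0.15 (adjusted p = 0.0453). It did not pass with the animal as a block (adjusted p = 0.0547 fixed and 0.0674 random), in DESeq2 (adjusted p = 0.125) or without the libraries numbered 2 and 3 (0.41 ± 0.19, adjusted p = 0.633). It passed in 6 of 20 other settings, and was lost without any one library other than contracted control 1, uncontracted Myc 1 and contracted Myc 2.

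The Myc effect on Hspd1 in uncontracted legs was 1.87-fold, 0.90 ± 0.22 (adjusted p = 0.315), and its contraction change in Myc animals was -0.01 ± 0.20. The difference of the 2 contraction effects was -1.03 ± 0.30 (adjusted p = 0.855). Hspe1, named after its values were seen, had 81.4, 53.4 and 50.5 CPM in contracted Myc and 68.7, 69.7 and 50.3 CPM in uncontracted Myc libraries. It had 44.1, 58.6 and 71.9 CPM in contracted control and 41.4, 44.4 and 47.1 CPM in uncontracted control libraries. Its log2 change was 0.51 ± 0.21 with Myc in uncontracted legs (adjusted p = 0.681), without overlap, and 0.40 ± 0.21 with contraction in controls (adjusted p = 0.431), with overlap. Of their 3′ sequence, 39.2% for Hspd1 and 43.8% for Hspe1 (as 50-base stretches) also occurs in other annotated genes, most of them named as pseudogenes, so that some of their reads could have been assigned otherwise.

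Hspd1 and Hspe1 start close together and act as 1 chaperonin, yet their ratio differed between groups. The log2 level of Hspd1 minus Hspe1 was -0.98 to -0.49 in contracted Myc, -0.89 to -0.79 in uncontracted Myc, -0.61 to -0.60 in contracted control and -1.21 to -1.16 in uncontracted control libraries. The uncontracted control libraries were below all 9 others. This pair was also chosen after its values were seen, and its values are a description. Trap1, a matrix chaperone of another family, ranged from 39.5 to 66.6 CPM with overlapping groups in all comparisons.

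The import motor couples Hspa9, which hydrolyses ATP to draw proteins in, to the channel through Timm44. Hspa9 had 137, 121 and 141 CPM in contracted Myc, 129, 150 and 128 in uncontracted Myc, 115, 129 and 135 in contracted control and 97.4, 110 and 91.2 in uncontracted control libraries. For Hspa9 the 3 uncontracted control libraries were the lowest of the 12, a pattern whose share over all genes was not counted. Hspa9 differed by 0.45 ± 0.13 with Myc in uncontracted legs (adjusted p = 0.564) and by 0.35 ± 0.13 with contraction in controls (adjusted p = 0.243, and 0.20 ± 0.19 without the libraries numbered 2 and 3). Timm44, named after its values were seen, had 45.5, 36.4 and 26.5 CPM in contracted Myc and 39.7, 43.3 and 49.5 CPM in uncontracted Myc libraries. It had 32.9, 36.9 and 24.6 CPM in contracted control and 31.2, 29.6 and 28.8 CPM in uncontracted control libraries. Uncontracted Myc libraries lay above uncontracted control libraries at 0.56 ± 0.21 (adjusted p = 0.593), while with contraction in controls the change was 0.07 ± 0.21.

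Grpel1, which exchanges the nucleotide of Hspa9 and is named after its values were seen, went the other way in contracted legs. It had 22.1, 21.2 and 22.9 CPM in contracted Myc libraries, all below the 31.5, 27.6 and 29.8 CPM of contracted control libraries, a log2 change of -0.42 ± 0.19 (adjusted p = 0.999). It was 1 of 33 genes to lie lower without overlap in that comparison, and 3.68% of all genes did so. The J proteins Dnajc15 and Dnajc19 and their partner Pam16 ranged from 42.1 to 68.9, 9.28 to 18.8 and 22.4 to 42.6 CPM with overlapping groups throughout, and Pam16 shares 95.6% of its 3′ sequence with another annotated gene. Grpel2 had 0 to 9 reads per library and was not tested.

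At the outer membrane, Tomm20, Tomm22 and Tomm70a are receptors and Tomm40 is the channel. Tomm22 had 10.3, 10.9 and 11.4 CPM in contracted Myc libraries, all below the 19.5, 19.5 and 14.7 CPM of uncontracted Myc libraries. It had 12.6, 10.5 and 7.13 CPM in contracted control and 10.2, 16.8 and 12.9 CPM in uncontracted control libraries, which overlapped. Its contraction change was -0.72 ± 0.27 in Myc animals (adjusted p = 0.162) and -0.56 ± 0.20 on average (adjusted p = 0.0923), and it passed in 0 of the other settings tried for either, being -0.79 ± 0.41 in Myc animals without the libraries numbered 2 and 3. Tomm70a, the receptor for carrier precursors, had 39.3, 24.9 and 20.4 CPM in contracted Myc, 28.4, 21.3 and 28.6 in uncontracted Myc, 23.8, 19.1 and 24.6 in contracted control and 18.5, 12.1 and 22.0 in uncontracted control libraries. Uncontracted Myc and control libraries overlapped, and the Myc effect there was 0.56 ± 0.27 (adjusted p = 0.766), between 0.34 without uncontracted control 2 and 0.76 without uncontracted control 3. Tomm40 lay higher without overlap in uncontracted Myc legs (10.7, 11.9 and 11.6 CPM) than in uncontracted control legs (1.91, 10.1 and 7.96 CPM), where 1 library held 3 reads. The channel homologue Tomm40l, the small subunit Tomm7 and Tomm20 ranged from 9.72 to 20.7, 73.3 to 95.9 and 4.04 to 13.8 CPM, and no comparison of them passed. The small subunits Tomm5 and Tomm6 had 1 to 6 and 2 to 13 reads per library and were not tested.

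Samm50 is the core of the sorting and assembly machinery that inserts barrel proteins into the outer membrane. It was the most steadily measured of these genes, at 175, 155 and 152 CPM in contracted Myc, 184, 181 and 190 in uncontracted Myc, 153, 162 and 170 in contracted control and 159, 160 and 152 in uncontracted control libraries. Uncontracted Myc libraries were the highest of the 12. Their change against uncontracted control libraries was 0.24 ± 0.12 (adjusted p = 0.766), and contracted against uncontracted Myc libraries changed by -0.21 ± 0.12 (adjusted p = 0.422). Its partner Mtx1 ranged from 4.83 to 14.7 CPM, and Mtx2 had 3 to 13 reads per library and was not tested.

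Timm22, the channel that inserts carriers, had 48.3, 34.6 and 39.7 CPM in contracted Myc, 37.2, 37.7 and 48.0 in uncontracted Myc, 44.1, 44.8 and 54.4 in contracted control and 37.5, 40.4 and 33.7 in uncontracted control libraries. Contracted control libraries were all above uncontracted control ones, at 0.36 ± 0.18 (adjusted p = 0.403). Timm29, its partner in mammals, ranged from 9.79 to 22.9 CPM. In the TIM23 channel, Timm17a had 62.8, 52.2 and 39.7 CPM in contracted Myc, 56.1, 47.1 and 48.0 in uncontracted Myc, 48.3, 53.3 and 53.1 in contracted control and 48.4, 35.0 and 44.1 in uncontracted control libraries. Its paralogue Timm17b had 75.9, 44.9 and 58.9 CPM in contracted Myc, 68.7, 64.0 and 79.7 in uncontracted Myc, 70.0, 55.3 and 53.1 in contracted control and 82.7, 65.3 and 52.0 in uncontracted control libraries. All groups of both overlapped in every comparison, with the averaged contraction change at 0.15 ± 0.13 for Timm17a and -0.20 ± 0.14 for Timm17b. The presequence receptor Timm50 ranged from 23.9 to 39.5 CPM. Timm23, the channel itself, had 0 to 4 reads per library and shares 95.7% of its 3′ sequence with other genes, and Timm21, which links the channel to the respiratory chain, had 4 to 13 reads; neither was tested.

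Pmpca and Pmpcb form the peptidase that removes presequences. Pmpca had 15.9, 23.7 and 26.5 CPM in contracted Myc, 18.9, 27.6 and 28.6 in uncontracted Myc, 23.1, 30.3 and 17.5 in contracted control and 13.4, 19.5 and 21.4 in uncontracted control libraries. Groups overlapped, with a Myc effect in uncontracted legs of 0.46 ± 0.26 (adjusted p = 0.806). Pmpcb, with 2 to 25 reads per library, ranged from 1.27 to 15.3 CPM, and no comparison of it passed. Timmdc1, despite its name a helper of complex I assembly, had 20.7, 12.7 and 19.2 CPM in contracted Myc, 16.4, 15.7 and 16.2 in uncontracted Myc, 18.2, 15.8 and 16.8 in contracted control and 11.5, 16.8 and 18.4 in uncontracted control libraries. Tomm34, a cytosolic co-chaperone, had 9.66, 4.85 and 7.22 CPM in contracted Myc, 8.19, 6.28 and 3.87 in uncontracted Myc, 7.00, 5.27 and 7.13 in contracted control and 12.7, 7.40 and 5.51 in uncontracted control libraries. Neither gene's groups separated in any comparison.

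Set beside the Myc reads of the same library, Timm10 showed a gap. The 6 libraries with the highest Timm10, at 38.6 to 52.1 CPM, held 9, 11, 59, 10, 9 and 32 Myc reads, and the other 6, at 18.4 to 25.2 CPM, held 1, 2, 0, 1, 0 and 0. The libraries labelled contracted control 2 and 3 were thus near the uncontracted Myc libraries in Timm10. In Myc reads only contracted control 2 was near them, with 10, while contracted control 3 held 59. Those labelled contracted Myc 2 and 3 were near the one labelled contracted control 1 in both genes. Timm9 was also separated, at 24.0 to 30.4 CPM in the 6 libraries with 9 or more Myc reads and 13.8 to 21.7 CPM in the 6 with 0 to 2. How many import and folding genes, or genes tested in all, show such a gap was not counted. The gaps of Timm10 and Timm9 are thus a description without a background share. Hspd1 showed no such gap. In the libraries labelled contracted Myc 2, contracted Myc 3 and contracted control 1, with 0, 2 and 1 Myc reads, it stood at 28.5, 35.5 and 28.7 CPM, against 17.8 to 19.6 CPM in uncontracted control libraries with 0 to 1 Myc reads. What set the Myc reads of contracted libraries 2 and 3, an exchange of labels or samples included, was not tested.

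**Figure D5:**
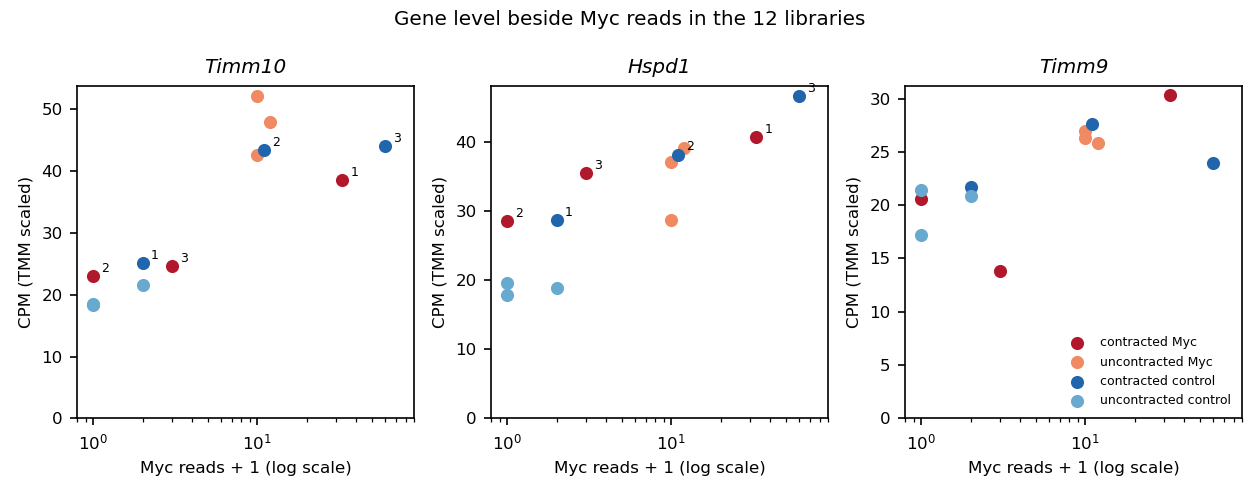
CPM of Timm10, Hspd1 and Timm9 (vertical) is plotted against Myc reads plus 1 on a log axis for the 12 libraries, coloured by labelled group, with the number of each contracted library printed for Timm10 and Hspd1. Timm10 lies at 18.4 to 25.2 CPM in libraries with 0 to 2 Myc reads and at 38.6 to 52.1 CPM in the others.

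Among the other gene lists, that of cytosolic chaperones and heat shock factor targets changed with contraction. This list is not limited to chaperones of mitochondrial import. Among 17 tested cytosolic chaperones and heat shock factor targets, 10 rose in contracted control legs (2.38% of all genes did) and 9 in contracted Myc legs (3.45% of all genes), and 0 fell. Hspa1b rose by 5.34 ± 0.69 and Hspb8 by 1.67 ± 0.21 in controls, and Hspa1a by 3.98 ± 0.48 and Hspb1 by 1.97 ± 0.23 in Myc animals (each with an adjusted p of 3.52e-05 or less). The median of the 17 was 1.06 in controls and 0.69 in Myc animals, against 0.12 and -0.13 for the 33 import and folding genes. Of 7 tested genes of the mitochondrial unfolded protein and integrated stress responses, the transcription factor genes Atf4 (0.91 ± 0.15) and Cebpb (0.90 ± 0.25) rose with contraction in Myc animals, Cebpb at an adjusted p of 0.0499, and Chac1 fell by 0.90 ± 0.21 in controls. DESeq2 called 1 gene of this list with contraction in Myc animals. Of 9 tested regulators of mitochondrial biogenesis, the coactivator genes Ppargc1a (1.94 ± 0.36) and Pprc1 (1.80 ± 0.37) rose in controls and Ppargc1a (2.60 ± 0.39) in Myc animals. Of 9 tested carriers that use the TIM22 complex, 1 fell with contraction in Myc animals, Slc25a25, by 1.38 ± 0.38 (edgeR adjusted p = 0.0470). DESeq2 called 0 of these carriers there. Of all genes, 0.449% fell with contraction in Myc animals and 0.419% in controls, and the shares that rose are given above.

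In the remaining lists edgeR called 0 genes with Myc in uncontracted legs and 0 with contraction in either genotype. With Myc in uncontracted legs, 13 of 16 tested mitochondrial proteases and peptidases were above 0 (median 0.16), as were 12 of 14 genes for inner membrane insertion and MICOS (0.15), 56 of 72 mitochondrial ribosomal proteins (0.16) and 66 of 75 nuclear oxidative phosphorylation subunits (0.14). Cytosolic ribosomal proteins had 76 of 78 above 0 and a median of 0.38, beside 0.18 for the 33 import and folding genes and -0.01 for all genes. At an unadjusted p under 0.05 these lists held 3, 1, 7, 4 and 46 genes, all higher, where 3.71% of all genes were higher, and DESeq2 called 0 in each. With contraction in Myc animals edgeR called 0 in each of the 5 lists, and 1, 0, 8, 8 and 16 genes were lower at an unadjusted p under 0.05, as were 6.13% of all genes. DESeq2 called 1 gene lower there, an oxidative phosphorylation subunit.

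Muscle markers were present throughout. The 5 skeletal muscle genes summed to 50261 to 60587 CPM in contracted Myc, 53909 to 54206 in uncontracted Myc, 50426 to 59593 in contracted control and 58642 to 63064 in uncontracted control libraries, so that the uncontracted groups did not overlap. Some markers of cell types moved with the groups compared. In uncontracted legs the 9 fast fibre genes summed to 138026 to 143636 CPM in Myc and 154201 to 168022 CPM in control animals. The 8 macrophage genes summed to 112 to 128 and 145 to 201 CPM there, and the 6 fibroblast genes to 615 to 757 and 903 to 1537 CPM. In contracted legs the Myc and control ranges of these lists overlapped. The 5 neutrophil genes summed to 4.85 to 50.5 CPM in contracted Myc, 0 to 0.63 in uncontracted Myc, 7.24 to 67.4 in contracted control and 0 to 3.67 in uncontracted control libraries, with the receptor genes Csf3r and Cxcr2 at 0 reads in all 12. The 5 erythrocyte genes summed to 424 to 1000 CPM in contracted Myc and 353 to 410 CPM in uncontracted Myc libraries. In controls they summed to 399 to 654 CPM in contracted and 310 to 462 CPM in uncontracted libraries, which overlapped. Adipocyte genes summed to 5897 to 6430 CPM in contracted and 6982 to 8814 CPM in uncontracted Myc libraries. Smooth muscle and pericyte genes were lower there too, at 127 to 162 against 168 to 177. Satellite cell genes were lower in Myc animals (12.1 to 15.0 against 16.3 to 21.7) and controls (9.07 to 14.0 against 18.4 to 24.2). Endothelial genes were higher in contracted Myc libraries (197 to 227 against 186 to 193). Mitochondrially encoded transcripts took 27.1 to 35.2% of a library. The part of these differences in the values of Timm10, Hspd1 and the other genes was not tested.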

How the data were processed

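The authors deposited 1 table of raw counts, whole reads per gene in 12 libraries, made from Trizol-extracted RNA with a QuantSeq 3′ kit, per the labels' protocols. Per the submitters' processing notes the tools were HTSeq 0.6.0, STAR 2.5.2a, FastQC 0.11.5 and SAMtools, and the build was mm10. The annotation release, strand setting and filters are not given in the sources used here, so reads of overlapping genes cannot be told apart. A 3′ count does not depend on transcript length, and levels of different genes are not ranked.

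All 12 libraries entered 1 fit of 4 group means in R 4.3.3 with edgeR 4.0.16, scaled by TMM. The filter was filterByExpr (minimum count 10), the test the 2-sided quasi-likelihood F test, and p was adjusted by Benjamini-Hochberg over 6676 genes with a threshold of 0.05. Each SE is the log2 change divided by the square root of F. Symbols came from GENCODE M21 and a table of names, for 47224 of 47643 identifiers. Alternatives were RLE or no scaling, DESeq2 1.42.0, no filter or at least 20 reads in 3 libraries, each library left out, the 6 libraries compared alone, the 4 contracted libraries numbered 2 and 3 left out, and a replicate block (limma 3.58.1 for the random one). The steps were tested on simulated counts.

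The members, gene lists and comparisons were chosen with earlier results of these data known. Values in every library are given for 15 genes: Timm10, each gene that passed, and in each of 10 role groups the gene with the smallest p for Myc in uncontracted legs and for averaged contraction. Other genes are given by their range, or named after their values were seen. Per the titles, both legs of 1 animal share genotype and number, which pairs them. The correlation of the deviations of such a pair was -0.122 to 0.112. Within a group each value comes from a separate animal. The edgeR p-values rest on a spread estimated jointly over the 4 groups, and the main fit did not use the pairing of legs. Total counts were 1371732 to 1643216 per library. They put the upper limit for a gene without reads (3 reads) at 1.83 to 2.19 CPM before TMM scaling, for counting error only.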

Additional observations from a re-analysis of the deposited data

Results flagged for a closer look

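For 2 of the 33 tested genes the contraction effect ran in opposite directions in the 2 genotypes, every control animal being higher in the contracted leg and every Myc animal lower. They are Timm10 and Mtx1 (2 of 33, 6.06%), where 168 of 6676 genes (2.52%) do so. The contraction effect in Myc animals minus that in controls was -1.692 on the log2 scale for Timm10 (edgeR adjusted p = 0.275) and -0.688 for Mtx1 (edgeR adjusted p = 0.970). Neither difference passed over all genes, and Mtx1 had only 7 to 21 reads per library. The contracted libraries labelled control 2 and 3 held more Myc reads than those labelled Myc 2 and 3. Without these libraries the Timm10 difference was -0.66 ± 0.38. The part of the labels in this difference was not tested.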

How the results depend on the processing

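The alternatives were run gene by gene for Tomm22, Tomm70a, Timm10, Timm44, Grpel1, Hspa9, Hspd1 and Hspe1 in the comparisons where each had an unadjusted p under 0.05, and no direction reversed among them. With Myc in uncontracted legs, where 0 of the 33 genes passed, 1 passed (Timm10) with no low-count filter, without the contracted libraries numbered 2 and 3, with the 6 libraries alone and in DESeq2, and 0 to 1 when 1 library was left out. Over all genes these settings called 24, 4, 2 and 1, and 0 to 2 with 1 library left out, instead of 0. With Myc in contracted legs 5 genes instead of 0 passed without the filter. With contraction in controls 0 of the 33 instead of 2 passed without the libraries numbered 2 and 3, 1 with the animal as a random block, and 0 to 2 with 1 library left out. All genes called were 187, then 305 without the filter, 64 without the libraries numbered 2 and 3, and 116 to 307 with 1 left out. With contraction in Myc animals 1 of the 33 instead of 0 passed without the filter and 0 to 1 with 1 library left out. All genes called there were 260, then 433 without the filter, 57 without the libraries numbered 2 and 3, and 146 to 507 with 1 left out. Averaged over genotypes, 0 of the 33 instead of 1 passed with library totals alone, without the libraries numbered 2 and 3, under the fixed and the random block and in DESeq2, and 0 to 1 with 1 left out. All genes called were 499, then 108 without the libraries numbered 2 and 3 and 349 to 702 with 1 left out. For the difference of contraction effects, 1 of the 33 and 18 genes instead of 0 passed without the filter, and 0 to 1 and 0 to 4 with 1 left out. The mean log2 level of the 33 genes differed by 0.26 between uncontracted groups and by 0.34 with totals that leave out mitochondrially encoded genes. The cause of these moves was not tested. The replicate block changed no other call than those of Timm10 and Hspd1 given above. At this depth genes under about 10 reads per library could not be tested.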
